A study of Mus musculus with 9 samples.

Results

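The interleukin-1 (IL-1) family genes described here are 10 genes chosen by symbol for their role: the cytokine genes Il1a, Il1b and Il18, the secreted inhibitors Il1rn and Il18bp, the signalling receptor chains Il1r1, Il1rap, Il18r1 and Il18rap, and the decoy receptor Il1r2. They are 10 of the 24054 genes listed for each library, and all 10 passed the filter on low counts (an average of at least 1 read per library), as did 14452 genes in all. Expression was measured by mRNA sequencing of CD11c+MHCII+CD11b+ spleen cells in 3 groups, each with 3 libraries, all from C57BL/6 mice that carried Clec9a-Cre and Rosa-tdTomato on both alleles, controls included. At 8 days of age both TOM+ cDC2 and TOM- DC2 were taken, and in adult mice, aged 9 weeks in library 91 and 8 weeks in libraries 92 and 95, TOM+ cDC2 alone. Tomato marks cells in which Clec9a-driven Cre was active at some point of their history, so it reports ancestry and not current Clec9a expression, both Clec9a alleles carried the Cre insertion in every group, and cells of young mice came from pools of spleens. Libraries are named by group and by the number in their deposited names (81, 91 and 92 in both young groups, 91, 92 and 95 in adults), and the labels do not say whether they came from separate mice, so that p-values measure the spread between these libraries.

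IL-1α and IL-1β signal through a receptor made of IL1R1 and the accessory chain IL1RAP, which recruits MyD88 and leads to NF-κB and MAP kinase activity. IL1RN, the IL-1 receptor antagonist, occupies IL1R1 without signalling, and IL1R2 binds IL-1 without a signalling domain. IL-18 uses an analogous pair of chains, IL18R1 and IL18RAP, and is neutralised by the soluble protein IL18BP. IL-1β and IL-18 are made as precursors that caspase-1 cleaves within inflammasomes, so mRNA does not give the amount of active cytokine. Dendritic cells are known as sources of IL-1β after microbial stimulation, and IL-18 receptors are best known on T cells, NK cells and innate lymphoid cells.

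The genes lie in a few groups on the genome (GRCm38, the build of the files). Il1r2 (40084692 to 40125230), Il1r1 (40222480 to 40316201), Il18r1 (40465552 to 40500854) and Il18rap (40515362 to 40551707) follow each other on the plus strand of chromosome 1. Il1a (129299609 to 129310186) and Il1b (129364569 to 129371164) are neighbours on the minus strand of chromosome 2, and Il1rn (24336860 to 24351491) is on the plus strand of the same chromosome. Il18bp (102015074 to 102018232) is on the minus strand of chromosome 7, Il18 (50554700 to 50581841) on the plus strand of chromosome 9 and Il1rap (26581509 to 26730128) on the plus strand of chromosome 16. Because the counting used no strand, reads from Il1a and Gm14023, from Il1b and the antisense Il1bos, from Il18bp and Numa1, from Il18 and Bco2 or Tex12, from Il1r2 and Gm16894, and from Il1rap and Gm20319 cannot be told apart where these genes overlap.

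The 250 bases before an annotated start (RefSeq, GRCm38.p6) are shown for the IL-1 pair and for the 4 chromosome 1 receptors, because the pair differed widely in level and the receptors in pattern. Each runs 5′ to 3′ on its gene's strand, and capitals mark matches on either strand to a few short motifs that were chosen after the windows had been read. The core promoter motif was searched as TATAAA. The letters CACGTG stood for an E-box. The letters GAGGAA stood for the core that PU.1 binds. A short NF-κB motif was searched as GGANTTTCC. The windows are chr2:129309973-129310222 (minus strand) for Il1a, chr2:129371140-129371389 (minus strand) for Il1b, and on the plus strand chr1:40085843-40086092 for Il1r2, chr1:40224830-40225079 for Il1r1, chr1:40465302-40465551 for Il18r1 and chr1:40515112-40515361 for Il18rap.
Il1a: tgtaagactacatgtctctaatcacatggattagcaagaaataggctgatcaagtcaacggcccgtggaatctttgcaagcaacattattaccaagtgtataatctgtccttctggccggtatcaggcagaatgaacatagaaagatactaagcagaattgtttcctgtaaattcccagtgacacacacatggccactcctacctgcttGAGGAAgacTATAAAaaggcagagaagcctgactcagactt
Il1b: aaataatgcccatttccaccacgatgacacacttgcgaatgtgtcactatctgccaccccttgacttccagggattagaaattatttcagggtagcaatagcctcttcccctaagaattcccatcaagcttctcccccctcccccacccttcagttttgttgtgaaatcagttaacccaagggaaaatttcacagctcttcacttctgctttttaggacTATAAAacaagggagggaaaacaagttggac
Il1r2: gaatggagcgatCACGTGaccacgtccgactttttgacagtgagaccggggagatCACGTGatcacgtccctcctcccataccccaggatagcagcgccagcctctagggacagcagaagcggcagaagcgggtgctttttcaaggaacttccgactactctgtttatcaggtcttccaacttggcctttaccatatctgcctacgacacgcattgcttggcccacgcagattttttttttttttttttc
Il1r1: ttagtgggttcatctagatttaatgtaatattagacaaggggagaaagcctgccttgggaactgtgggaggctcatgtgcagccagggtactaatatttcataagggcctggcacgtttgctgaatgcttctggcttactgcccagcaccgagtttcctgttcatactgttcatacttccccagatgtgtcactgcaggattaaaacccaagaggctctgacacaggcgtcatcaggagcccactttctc
Il18r1: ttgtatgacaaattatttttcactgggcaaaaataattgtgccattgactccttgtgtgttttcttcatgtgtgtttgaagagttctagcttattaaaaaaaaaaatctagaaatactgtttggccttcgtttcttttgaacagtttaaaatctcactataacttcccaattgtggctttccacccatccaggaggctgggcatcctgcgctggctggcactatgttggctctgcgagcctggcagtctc
Il18rap: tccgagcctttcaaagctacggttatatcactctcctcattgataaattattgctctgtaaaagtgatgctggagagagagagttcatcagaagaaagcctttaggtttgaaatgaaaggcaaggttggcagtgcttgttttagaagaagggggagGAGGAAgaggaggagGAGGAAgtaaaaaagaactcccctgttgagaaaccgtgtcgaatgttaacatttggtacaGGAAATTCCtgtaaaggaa

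Both cytokine genes on chromosome 2 carry TATAAA just before the start, at -32 to -27 in Il1a and at -31 to -26 in Il1b, counted back from the start. TATAAA stood on the gene's strand 40 to 20 bases before the start in 1.99% of all 32851 windows. Il1r2 holds CACGTG at -238 and again at -195, letters found in 6.02% of windows. Il18rap holds GAGGAA at -94 and -79 (23.3% of windows) and GGANTTTCC on the other strand at -19 (1.07% of windows). None of the searched letters occurred in the printed windows of Il1r1 and Il18r1, which are those of the first annotated start. Il1r1 has another annotated start, whose window held none of them either, and Il18r1 has others, 1 of which (chr1:40465756-40466005) held GAGGAA on the other strand at -6. These matches describe letters only, and binding was not measured in these libraries.

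Levels are deposited TPM, which are scaled by transcript length and by the total of each library, so that genes can be set beside each other. In TOM+ cDC2 from 8-day-old mice the order from high to low was Il1b (3047 ± 316 TPM, SD, n = 3), Il1r2 (583 ± 132), Il18 (56.9 ± 4.04), Il1rn (37.0 ± 5.14), Il1a (3.72 ± 1.73), Il1rap (3.17 ± 0.620), Il18rap (1.65 ± 0.604), Il18bp (1.34 ± 0.414), Il1r1 (0.24 ± 0.0819) and Il18r1 (0.21 ± 0.0361). The 4 highest genes were separated from each other in every library of this group, whereas the ranges of Il1a and Il1rap, of Il18rap and Il18bp, and of Il1r1 and Il18r1 overlapped. The order differed in the other groups. In TOM- DC2, Il1r1 (3.91 ± 0.304 TPM) stood between Il1a (4.64 ± 2.12 TPM) and Il18rap (2.76 ± 0.665 TPM), whose ranges included or adjoined its own. Il18bp (1.33 ± 0.539 TPM) had the lowest mean there, with a range that overlapped that of Il18r1 (1.57 ± 0.748 TPM). In adults, Il1rn (59.7 ± 13.3 TPM) stood above Il18 (41.8 ± 3.08 TPM) and Il18bp (5.20 ± 0.824 TPM) above Il1a (2.12 ± 0.574 TPM), with no overlap in either pair, and Il1r1 (0.0867 ± 0.0252 TPM) was the lowest. In all 3 groups Il1b and the decoy Il1r2 stood far above the signalling chains of either receptor.

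**Figure D1:**
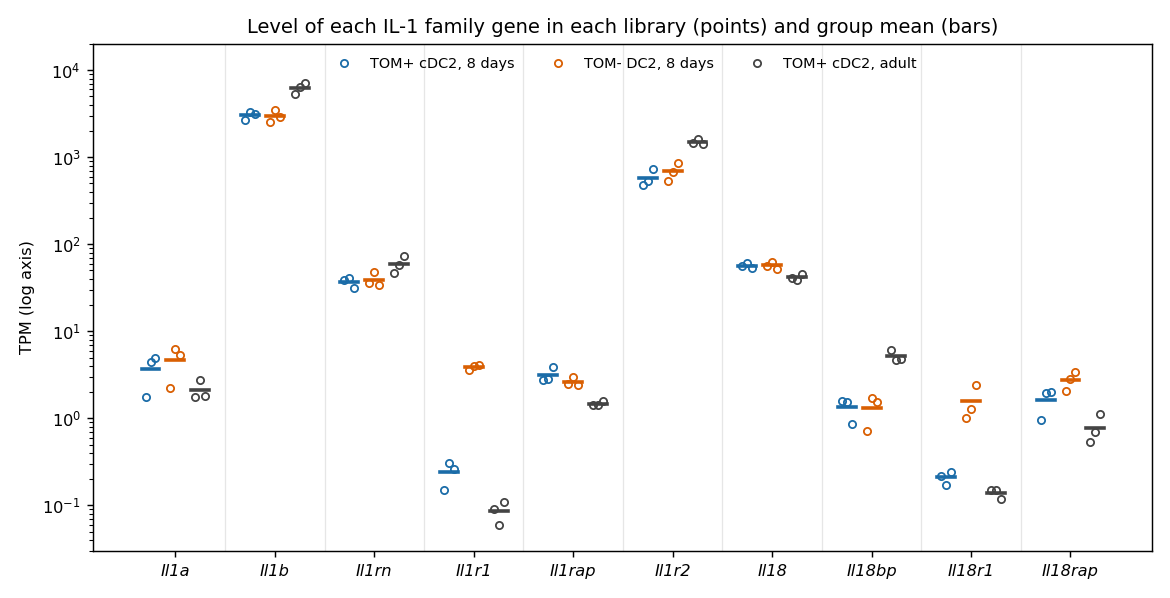
TPM of each of the 10 genes on a log axis, with 3 libraries per group as points and the group mean as a bar. Il1b and Il1r2 lie highest in adults, and Il1r1 and Il18r1 lie highest in TOM- DC2, where the lowest libraries (3.57 and 1.01 TPM) stand above every library of the other groups.

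Differences were tested on read counts with edgeR's quasi-likelihood test over all 14452 genes, with log2FC given as the first group minus the second and padj as the Benjamini-Hochberg adjusted p over all those genes. A gene was called where its log2FC was above 1 or below -1 with padj under 0.05. Between TOM+ cDC2 and TOM- DC2 of 8-day-old mice, 2 of the 10 genes were called, both higher in TOM- DC2, where 1.18% of all tested genes were called. Between TOM+ cDC2 of 8-day-old and adult mice, 4 of 10 were called, 1 higher in young and 3 higher in adult mice, against 12.8% of all genes. Between young TOM- DC2 and adult TOM+ cDC2, 6 of 10 were called, 3 in each direction, against 11.3% of all genes. The median log2FC of the 10 genes was -0.14, 0.36 and 0.46 in these comparisons, and that of all genes 0.00, 0.05 and 0.07. Both comparisons with adults used the same 3 adult libraries.

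**Figure D2:**
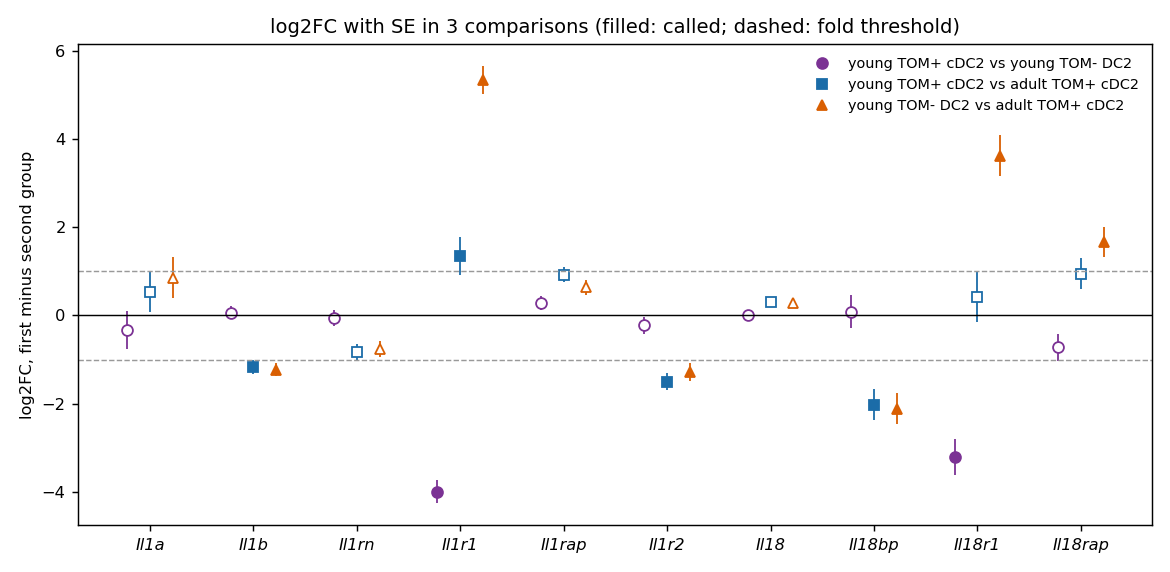
log2FC of each gene with its SE in the 3 comparisons, filled where the gene was called. Il1r1 reaches -4.00 and 5.35 and Il18r1 -3.21 and 3.63 in the comparisons that involve TOM- DC2, while Il1b, Il1r2 and Il18bp lie below -1 in both comparisons with adults.

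Several measures moved with the groups. Young and adult libraries differed in the share of reads on no feature (8.84% to 12.83% against 15.18% to 17.12%) and in multimapping reads (12.68% to 13.41% against 10.44% to 10.85%), and gene counts per library lay between 12783252 and 22809401. Both young libraries numbered 81 stood apart from 91 and 92 of their own group, with a chi-square per gene of 22.21 to 24.33 against 9.181 and 11.74 between 91 and 92, so that values without them are given where they changed a call. The genes of the sorted markers CD11c and CD11b, Itgax (301 to 463 TPM) and Itgam (73.0 to 168 TPM), and the cDC2 marker Sirpa (463 to 862 TPM) were well expressed in all 9 libraries. In bulk RNA, more cells expressing a gene and more RNA per cell cannot be told apart.

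Il1b, which encodes IL-1β, was among the most abundant mRNAs of these cells and was higher in adults. It measured 2686, 3276 and 3179 TPM in TOM+ cDC2 from 8-day-old mice (libraries 81, 91 and 92), 2563, 3492 and 2889 TPM in TOM- DC2 (81, 91 and 92), and 5365, 6486 and 7077 TPM in adult TOM+ cDC2 (91, 92 and 95). The young groups overlapped, and the lowest adult library lay above all 6 young libraries. Il1b ranked 18 to 27 by TPM in young libraries and 7 to 12 in adults, and took 0.199% to 0.287% of gene counts in young libraries and 0.412% to 0.534% in adults. The log2FC was -1.17 (SE 0.15, padj = 6.3e-05) for young TOM+ cDC2 against adults and -1.23 (SE 0.15, padj = 5.5e-05) for TOM- DC2 against adults, that is 2.25-fold and 2.34-fold lower in young mice. Between the young groups it was 0.06 (SE 0.15, padj = 0.97).

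Il1a, which encodes IL-1α, was low throughout, and its level in young mice followed the library number. It measured 1.74, 4.46 and 4.96 TPM in young TOM+ cDC2, 2.26, 6.30 and 5.37 TPM in TOM- DC2, and 1.78, 2.78 and 1.79 TPM in adults, in the same library order. Young TOM+ library 81 lay below all adult libraries and TOM- library 81 within their range, and the other 4 young libraries lay above all 3 of them. No comparison passed, with a log2FC of 0.54 (SE 0.46, padj = 0.38) for TOM+ cDC2 and 0.86 (SE 0.46, padj = 0.16) for TOM- DC2 against adults. Without both libraries numbered 81 the second value became 1.18 (padj = 0.003) and met the call. In 3 of 3 same-numbered young pairs Il1a was higher in TOM- DC2, by 0.11 to 0.49 on the log2 scale, with a log2FC over all libraries of -0.32 (SE 0.43, padj = 0.93). With the library number as a block this difference did not pass either (padj = 0.35).

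Within each library Il1a was present at a small fraction of Il1b. Il1b exceeded Il1a by 641 to 1544 times in young TOM+ cDC2, 538 to 1134 times in TOM- DC2 and 2333 to 3953 times in adults, and the adult ratios did not overlap those of young mice. The mean log2 ratio of Il1a to Il1b, with 1 added to each TPM, was -9.41 ± 0.47 (SD, n = 3), -9.12 ± 0.44 and -10.99 ± 0.29. An exact two-sided permutation test of each young group against adults gave p = 0.1, the smallest that 3 libraries against 3 allow, and an adjusted p of 0.15 over the 12 ratio tests made, so that no ratio could pass 0.05.

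Il1rn, the receptor antagonist, was moderately expressed and higher in adults by less than the fold threshold. It measured 38.9, 41.0 and 31.2 TPM in young TOM+ cDC2, 35.6, 48.4 and 33.8 TPM in TOM- DC2, and 47.1, 58.3 and 73.6 TPM in adults. In TPM the highest TOM- library lay above the lowest adult library, although in library-size scaled counts the young and adult libraries did not overlap. The log2FC was -0.82 (SE 0.18, padj = 0.0028) and -0.76 (SE 0.18, padj = 0.0051) against adults, and -0.06 (SE 0.18, padj = 0.97) between the young groups. Il1b exceeded Il1rn by 69.1 to 102 times in young TOM+ cDC2, 71.9 to 85.5 times in TOM- DC2 and 96.2 to 114 times in adults. The mean log2 ratio of Il1rn to Il1b was -6.33 ± 0.28, -6.22 ± 0.14 and -6.71 ± 0.13 (SD, n = 3), with an exact permutation p of 0.2 for TOM+ cDC2 and 0.1 for TOM- DC2 against adults (adjusted p = 0.267 and 0.15).

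Il18, by contrast with Il1b, was slightly lower in adults. It measured 56.8, 61.0 and 52.9 TPM in young TOM+ cDC2, 56.6, 62.9 and 52.1 TPM in TOM- DC2, and 40.9, 39.3 and 45.2 TPM in adults. Every young library lay above every adult library, and the young groups were nearly superimposed, with differences of -0.04 to 0.02 on the log2 scale within the 3 same-numbered pairs. The log2FC was 0.30 (SE 0.11, padj = 0.048) for TOM+ cDC2 and 0.28 (SE 0.11, padj = 0.065) for TOM- DC2 against adults. At 1.23-fold and 1.21-fold these were the smallest differences from adults among the 10 genes. Whether padj passed depended on the processing. For TOM+ cDC2 against adults DESeq2 gave 0.27 (padj = 0.073) and RSEM expected counts 0.29 (padj = 0.068). For the same comparison limma on log2(TPM + 1) gave 0.44 (padj = 0.0042). With a library left out, padj ranged from 0.049 to 0.18.

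Il18bp, the soluble inhibitor of IL-18, was higher in adults. It measured 1.60, 1.55 and 0.86 TPM in young TOM+ cDC2, 0.71, 1.71 and 1.56 TPM in TOM- DC2, and 6.15, 4.68 and 4.77 TPM in adults, from 8 to 31 reads in young and 49 to 67 reads in adult libraries. The lowest adult library lay well above the highest young library. The log2FC was -2.03 (SE 0.35, padj = 0.00062) and -2.12 (SE 0.35, padj = 0.00058) against adults, or 4.09-fold and 4.35-fold lower in young mice, and 0.09 (SE 0.38, padj = 0.98) between the young groups. In each library Il18 exceeded Il18bp, by 35.5 to 61.5 times in young TOM+ cDC2, 33.4 to 79.7 times in TOM- DC2 and 6.65 to 9.48 times in adults. The mean log2 ratio of Il18bp to Il18 was -4.64 ± 0.19, -4.67 ± 0.36 and -2.79 ± 0.23 (SD, n = 3), and each young group differed from adults with the smallest p that the exact permutation test allows (0.1, adjusted p = 0.15).

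**Figure D3:**
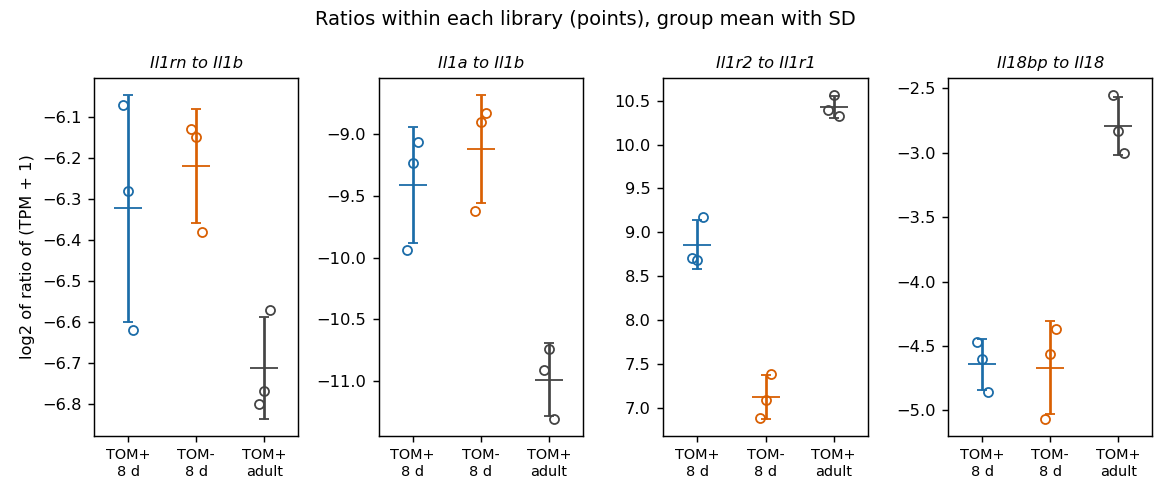
log2 ratio of 4 gene pairs in each library, with 1 added to each TPM, as points with the group mean and SD (n = 3). Il1r2 to Il1r1 separates all 3 groups, from 7.12 in TOM- DC2 over 8.86 in young TOM+ cDC2 to 10.43 in adults, and Il18bp to Il18 separates adults (-2.79) from both young groups.

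Il1r1, the signalling receptor for IL-1, showed the largest difference of the 10 genes. It measured 0.15, 0.31 and 0.26 TPM in young TOM+ cDC2, 3.57, 4.02 and 4.15 TPM in TOM- DC2, and 0.09, 0.06 and 0.11 TPM in adults. These levels rested on 8, 15 and 15 reads, on 146, 184 and 275 reads, and on 3, 2 and 5 reads. No library of TOM- DC2 came near any library of the other groups, and its 3 libraries lay within a narrow range (CV 7.78%). The log2FC was -4.00 (SE 0.26, padj = 7.4e-06) for TOM+ cDC2 against TOM- DC2 of the same age, a 16-fold difference that was called in all 16 alternatives tried, and 5.35 (SE 0.32, padj = 4.4e-07) for TOM- DC2 against adults. From summed reads alone, TOM- DC2 exceeded adults 42.3-fold, with a 95% interval of 22.8 to 88.6 that covers counting error only.

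A smaller difference of Il1r1 between young and adult TOM+ cDC2 rested on few reads. The 38 reads of the young libraries and 10 of the adult libraries gave a ratio of 2.58 with a 95% counting interval of 1.26 to 5.80. The log2FC of 1.35 (SE 0.43, padj = 0.025) met the call, which held in 7 of 15 alternatives. It was lost, for example, when young library 91 (padj = 0.081), young library 92 (padj = 0.071), adult library 91 (padj = 0.058) or adult library 92 (padj = 0.078) was left out.

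Il1r2, the decoy receptor, was higher in adults and far more abundant than Il1r1 in every library. It measured 481, 536 and 731 TPM in young TOM+ cDC2, 536, 683 and 860 TPM in TOM- DC2, and 1464, 1608 and 1423 TPM in adults, where it ranked 60 to 70 among all genes. The young groups overlapped and all adult libraries lay above them. The log2FC was -1.50 (SE 0.20, padj = 8.4e-05) and -1.28 (SE 0.20, padj = 0.00032) against adults, or 2.83-fold and 2.43-fold lower in young mice. Between the young groups it was -0.22 (SE 0.19, padj = 0.85), and Il1r2 was higher in TOM- DC2 in 3 of 3 same-numbered pairs. With the library number as a block, the same difference of -0.22 had padj = 0.0015, still within the fold threshold.

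The ratio of decoy to signalling receptor lay in separate ranges in the 3 groups, although its permutation test could not pass with so few libraries. Il1r2 exceeded Il1r1 by 1728 to 3207 times in young TOM+ cDC2, 150 to 207 times in TOM- DC2 and 12935 to 26800 times in adults. In TOM+ cells these ratios divide by few Il1r1 reads, 8 to 15 per library in young mice and 2 to 5 in adults. The size of the ratios in TOM+ cells, above all in adults, is therefore uncertain. With 1 added to each TPM the mean log2 ratio was 8.86 ± 0.28, 7.12 ± 0.25 and 10.43 ± 0.13 (SD, n = 3), and each of the 3 differences had the smallest exact permutation p possible (0.1, adjusted p = 0.15). Because Il1r1 was low in TOM+ cells, the added value compresses these ratios: with 0.1 added, the difference between the young groups was 3.34 instead of 1.74, and those against adults -2.23 instead of -1.57 and -5.57 instead of -3.31.

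Il1rap, the accessory chain shared by the receptors for IL-1, IL-33 and IL-36, was low and somewhat higher in young mice. It measured 2.76, 2.86 and 3.88 TPM in young TOM+ cDC2, 2.48, 2.95 and 2.43 TPM in TOM- DC2, and 1.41, 1.41 and 1.58 TPM in adults. All young libraries lay above the adult libraries and the young groups overlapped. The log2FC was 0.92 (SE 0.17, padj = 0.001) for TOM+ cDC2 and 0.64 (SE 0.17, padj = 0.011) for TOM- DC2 against adults, both short of the fold threshold, and 0.28 (SE 0.16, padj = 0.68) between the young groups. Without young library 81 the first value was 1.01 (padj = 0.0011) and met the call. Its mean in TOM- DC2, 2.62 ± 0.287 TPM, was below that in young TOM+ cDC2, 3.17 ± 0.620 TPM (SD, n = 3), whereas Il1r1, its partner chain, was higher in TOM- DC2.

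Il18r1, the ligand-binding chain of the IL-18 receptor, was higher in TOM- DC2 than in both other groups, at a lower level than Il1r1. It measured 0.22, 0.17 and 0.24 TPM in young TOM+ cDC2, 1.01, 1.28 and 2.42 TPM in TOM- DC2, and 0.15, 0.15 and 0.12 TPM in adults, from 5, 3 and 6 reads, 27, 32 and 75 reads, and 2, 2 and 3 reads. Adult libraries were therefore at the floor of 3 reads. The lowest TOM- library (27 reads) lay above the highest young TOM+ library (6 reads), and no library of TOM- DC2 overlapped either TOM+ group. The log2FC was -3.21 (SE 0.41, padj = 0.00099) between the young groups, a 9.23-fold difference called in all 16 alternatives. Against adults, 134 reads in TOM- DC2 faced 7, a ratio of 13.4 with a 95% counting interval of 6.31 to 33.9 (padj = 7.9e-05). Between young and adult TOM+ cDC2, 14 reads faced 7, and the ratio of 1.36 had an interval of 0.513 to 3.97 (padj = 0.62), so that a difference was not detectable at this depth.

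Il18rap, the signalling accessory chain of the IL-18 receptor, followed a graded pattern. It measured 0.95, 1.96 and 2.03 TPM in young TOM+ cDC2, 2.05, 2.85 and 3.37 TPM in TOM- DC2, and 0.53, 0.7 and 1.12 TPM in adults. TOM- DC2 lay above adults in every library, while young TOM+ cDC2 reached into the adult range through library 81. The log2FC was 1.67 (SE 0.34, padj = 0.0024) for TOM- DC2 against adults, which was called, and 0.95 (SE 0.35, padj = 0.047) for young TOM+ cDC2 against adults, which was not. Without both young libraries numbered 81 the latter became 1.22 (padj = 0.0022), and without adult library 95 it became 1.28 (padj = 0.031), and both met the call. Between the young groups the log2FC was -0.72 (SE 0.31, padj = 0.48). Il18rap was higher in TOM- DC2 in 3 of 3 same-numbered pairs, by 0.52 to 1.03 on the log2 scale, and with the library number as a block the log2FC of -0.73 had padj = 0.0017, again short of the fold threshold.

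The receptor genes on chromosome 1 differed in pattern although they are neighbours. Between Il1r1 and Il18r1 lie Il1rl2, which encodes the IL-36 receptor chain, and Il1rl1, which encodes ST2, the receptor for IL-33. Il1rl2 measured 1.17 ± 0.137 TPM in young TOM+ cDC2, 1.25 ± 0.0231 TPM in TOM- DC2 and 0.267 ± 0.0981 TPM in adults (SD, n = 3), with a log2FC against adults of 1.94 (SE 0.39, padj = 0.0018) and 2.0 (SE 0.39, padj = 0.0017). Il1rl1 measured 1.26 ± 0.440, 0.650 ± 0.245 and 0.167 ± 0.0896 TPM, with a log2FC against adults of 2.87 (SE 0.48, padj = 0.00051) and 1.86 (SE 0.50, padj = 0.012). Its mean was lower in TOM- DC2 than in young TOM+ cDC2, the reverse of its neighbours Il1r1 and Il18r1, with a log2FC of 1.01 (SE 0.39, padj = 0.38) that did not pass. Of the 6 genes in a row, Il1r2 was higher in adults, Il1rl2 and Il1rl1 were higher in both young groups than in adults, and Il1r1 and Il18r1 were higher in TOM- DC2 than in both groups of TOM+ cDC2.

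**Figure D4:**
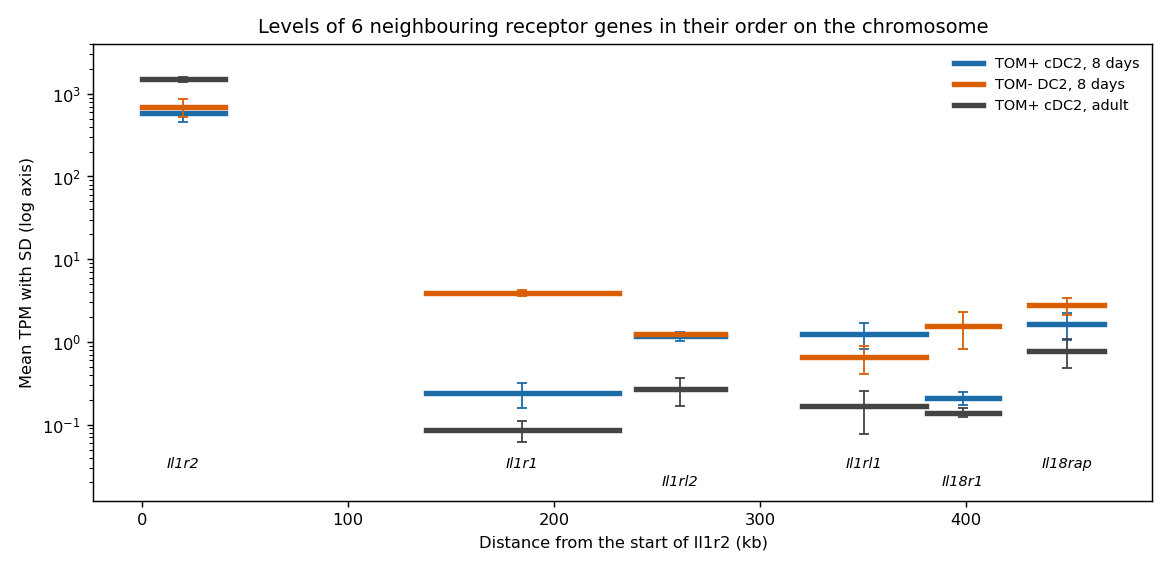
Mean TPM with SD (n = 3, log axis) of 6 receptor genes drawn at their position on chromosome 1, as distance in kb from the start of Il1r2. Adults lie highest for Il1r2 (1498 TPM) and lowest for the other 5 genes, and TOM- DC2 stands apart from both TOM+ groups at Il1r1 (3.91 TPM) and Il18r1 (1.57 TPM).

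Markers of other cells were read beside these results. Of the innate lymphoid list, Gata3 measured 2.12 to 2.52 TPM in TOM- DC2, 0.11 to 0.26 TPM in young TOM+ cDC2 and 0.34 to 0.46 TPM in adults. Like Il1r1 and Il18r1, it was highest in TOM- DC2. Between the TOM+ groups edgeR called Gata3 higher in adults, where limma called 0 of the 9 tested genes of this list. Il1r1 was called higher in young mice there, from 38 against 10 reads, and the call held in 7 of 15 alternatives. Among other genes of that list, Il22 was at 0 in TOM- DC2, Il23r at 0.03 to 0.15 TPM and Thy1 at 0.06 to 0.14 TPM. Tox, at 0.08 to 0.34 TPM there, was called higher than in adults, where it was at 0. Rora measured 1.32 to 1.94 TPM in TOM- DC2, against 1.23 to 1.59 TPM in young TOM+ cDC2 and 1.66 to 2.79 TPM in adults. In the same order Cxcr6 measured 0.08 to 0.71, 0.05 to 0.34 and 0.07 to 0.4 TPM. Il7r measured 4.79 to 5.61 TPM in TOM- DC2 against 2.89 to 3.63 and 3.14 to 4.87 TPM. The summed list, mostly Kit, ran from 215 to 283 TPM in TOM- DC2, 151 to 189 TPM in young TOM+ cDC2 and 285 to 340 TPM in adults. The 12 T and NK cell markers summed to 39.7 to 42.4 TPM in TOM- DC2 against 27.9 to 28.6 and 22.3 to 32.7 TPM. Most of this sum was Cd5, at 32.8 to 37.0 TPM in TOM- DC2 against 21.9 to 26.9 and 20.5 to 30.7 TPM. The 9 macrophage markers summed to 225 to 277 TPM against 142 to 172 and 92.7 to 138 TPM. The part of these cells in the higher Il1r1, Il18r1 and Il18rap was not tested. Basophil and mast cell markers summed to at most 0.53 TPM in any library.

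Neutrophils express both Il1b and Il1r2 strongly. Their 11 measured markers summed to 5.59 to 6.57 TPM in young TOM+ cDC2, 5.98 to 44.1 TPM in TOM- DC2 and 8.50 to 11.2 TPM in adults, where S100a8 was at 0 and Csf3r, at 8.12 to 10.4 TPM, made up most of the sum. The highest sum was that of TOM- library 81, with Ngp at 15.5 TPM. Il1b and Il1r2 were lowest in library 81 of both young groups, and the part of neutrophils in their levels was not tested. With age, 5 summed migratory DC markers rose from 459 to 663 TPM in the 6 young libraries to 1735 to 2665 TPM in adults. Most of this sum was Ccr7, with means of 307 TPM in young TOM+ cDC2, 421 TPM in TOM- DC2 and 1790 TPM in adults. Ccr7, Socs2 and Cacnb3 were called in both comparisons, and Fscn1 and Ccl22 in neither. The sum of 4 markers of ESAM-high cDC2 went from 209 to 405 TPM to 654 to 690 TPM. Immediate early genes summed to 10712 to 15960 TPM in young and 16989 to 23183 TPM in adult libraries, and edgeR, DESeq2 and limma called 0 of the 9, with 6 at an unadjusted edgeR p under 0.05 in each comparison with adults (48.6% and 46% of all genes). ESAM-low cDC2 markers summed to 1720 to 2563 TPM in young TOM+ cDC2, 1815 to 3040 TPM in TOM- DC2 and 1833 to 2300 TPM in adults. Monocyte markers summed to 1517 to 1595, 1264 to 1376 and 1055 to 1167 TPM in the same order. B cell markers summed to 61.0 to 70.7, 70.0 to 80.8 and 41.1 to 54.0 TPM. Of these, Ms4a1 was called in all 3 comparisons, with means of 2.46, 7.80 and 16.9 TPM. The part of these markers in the higher Il1b, Il1r2 and Il18bp of adults was not tested.

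The remaining genes of the pathway were counted from lists chosen for their known role. Of 15 symbols of other IL-1 family ligands and receptors, 11 were listed in the files and 4 passed the filter on low counts. Il1rl1 and Il1rl2 were the called genes among these 4, in both comparisons with adults (12.8% and 11.3% of all genes were called). However, limma on log2(TPM + 1), which compresses low levels, called neither. DESeq2 called 3 of the 4 for young TOM+ cDC2 against adults and 2 for TOM- DC2 against adults. Between the young groups edgeR, DESeq2 and limma each called 0 of the 4, where edgeR called 1.18% of all genes. An unadjusted edgeR p under 0.05 was found for 1 of the 4 (9.38% of all genes had such a p). The IL-36 and related cytokine genes Il1f5, Il1f6 and Il1f10 had no read in any library, and Il1f9, a neighbour of Il1rn, had 6 reads in all 9.

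Of 23 genes that carry signals from the IL-1 and IL-18 receptors, edgeR called 0 between the young groups, where it called 1.18% of all genes. DESeq2 and limma also called 0 there, and 3 had an unadjusted edgeR p under 0.05 (9.38% of all genes did). In each comparison with adults edgeR called 1 of the 23, against 12.8% of all genes for TOM+ cDC2 and 11.3% for TOM- DC2. That gene was Map3k8, a kinase upstream of ERK, at 29.3 ± 1.09 TPM in young TOM+ cDC2, 34.9 ± 1.87 TPM in TOM- DC2 and 77.5 ± 10.6 TPM in adults, with a log2FC of -1.53 (SE 0.12, padj = 2.3e-06) and -1.32 (SE 0.12, padj = 8.9e-06). The median log2FC of the list was 0.01, -0.18 and -0.20. Without the fold threshold, 2 were higher in young TOM+ cDC2 and 11 in adults, where 40.6% of all genes passed padj alone, and 2 were higher in TOM- DC2 and 10 in adults, where 36.3% did.

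Of 17 genes that process or release IL-1 and IL-18, edgeR called Nlrp3, the sensor of an inflammasome, between TOM- DC2 and adults (11.3% of all genes). It called no gene of the list between the young groups (1.18% of all genes) or between young and adult TOM+ cDC2 (12.8%). At an unadjusted p under 0.05 there were 2 genes of the list between the young groups, where 9.38% of all genes had such a p. Between young and adult TOM+ cDC2 there were 12, where 48.6% of all genes did, and DESeq2 and limma called 0 in both comparisons. Between TOM- DC2 and adults, DESeq2 called 2 genes of the list and limma 0, so that limma did not call Nlrp3. It measured 63.5 ± 7.56 TPM in young TOM+ cDC2, 54.8 ± 8.54 TPM in TOM- DC2 and 99.1 ± 17.7 TPM in adults, with a log2FC of -0.77 (SE 0.16, padj = 0.0019) for TOM+ cDC2 and -1.01 (SE 0.16, padj = 0.00036) for TOM- DC2 against adults. The difference between these values was not tested beyond the comparison of the young groups themselves (0.23, SE 0.16, padj = 0.76). Capn2, a calpain subunit named here after its values were seen, was the 1 gene of this list that passed padj alone between the young groups (1.60% of all genes did), at 54.8 ± 4.04 TPM in TOM+ cDC2 and 40.9 ± 4.70 TPM in TOM- DC2 (log2FC 0.46, SE 0.09, padj = 0.022). Calpains cleave the IL-1α precursor. The median log2FC of the list was 0.04, -0.21 and -0.28.

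Of 15 genes known to be induced through MyD88 and NF-κB, edgeR called 0 between the young groups, where it called 1.18% of all genes. There 2 had an unadjusted edgeR p under 0.05 (9.38% of all genes did), and DESeq2 and limma called 0. Against adults, young TOM+ cDC2 had 1 called gene higher and 5 lower (12.8% of all genes were called), and TOM- DC2 had 1 higher and 4 lower (11.3% of all genes). DESeq2 called 6 and 5 of the list in these comparisons, and limma on log2(TPM + 1) called 4 and 2. Ptgs2, which encodes cyclooxygenase-2, measured 237 ± 51.3, 277 ± 45.3 and 542 ± 87.3 TPM in young TOM+ cDC2, TOM- DC2 and adults (log2FC -1.33 and -1.13 against adults). Relb, an NF-κB subunit, measured 204 ± 19.8, 185 ± 14.2 and 483 ± 53.3 TPM (-1.37 and -1.54), and Birc3, an inhibitor of apoptosis, 131 ± 19.4, 137 ± 15.6 and 259 ± 33.8 TPM (-1.12 and -1.07). The chemokine genes Ccl3 (-1.13, padj = 0.00014) and Ccl4 (-1.37, padj = 0.00026) were called for TOM+ cDC2 against adults, and their values for TOM- DC2 against adults were -0.53 (padj = 0.021) and -0.79 (padj = 0.01). Nfkbiz, an atypical IκB protein gene, was called for TOM- DC2 against adults (-1.02, padj = 3.9e-05), and its value for TOM+ cDC2 against adults was -0.92 (padj = 6.5e-05). None of these 3 genes was called between the young groups. Cxcl1, a neutrophil chemokine gene, went the other way, at 2.86 ± 0.835, 4.37 ± 3.62 and 0.647 ± 0.372 TPM, with a log2FC of 1.80 (SE 0.66, padj = 0.045) and 2.51 (SE 0.64, padj = 0.0084). The median log2FC of the list was -0.04, -0.62 and -0.46.

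**Figure D5:**
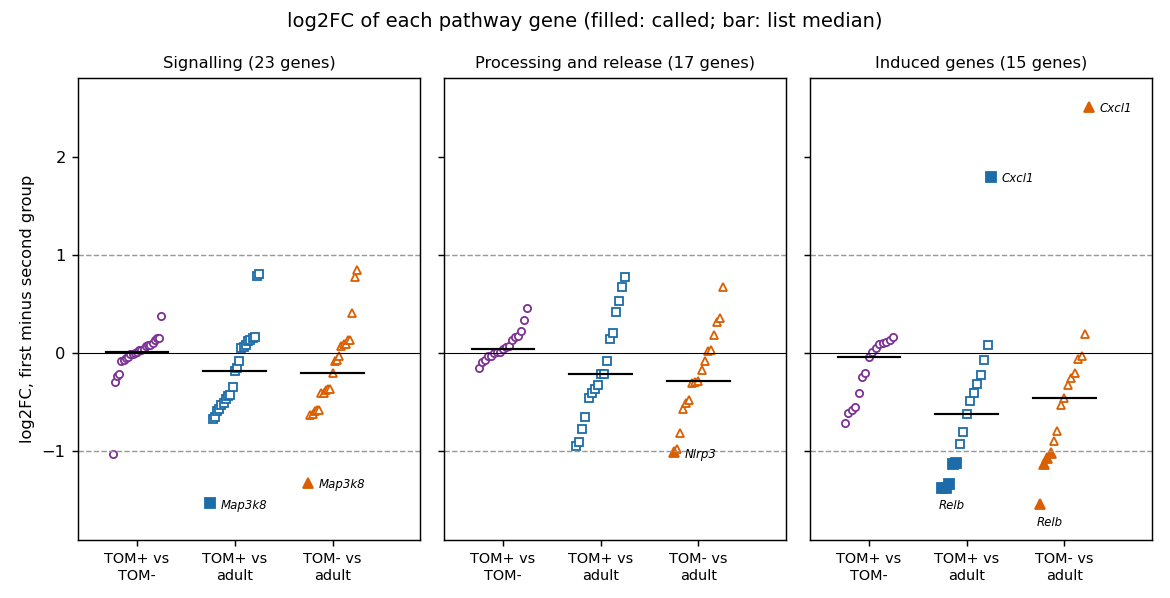
log2FC of each gene of the 3 pathway lists in the 3 comparisons, filled where called, with the list median as a bar and the fold threshold dashed. The list medians lie near 0 between the young groups (0.01, 0.04 and -0.04), and against adults the filled points are below -1 except for Cxcl1.

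The genes whose levels most resembled those of each IL-1 family gene over the 9 libraries were found among 10111 other genes averaging 50 or more reads (10112 for Il18r1 and Il18bp), by Pearson's r of log2(TPM + 1). These values describe 9 libraries that share depth and fall into 3 groups, so a difference between groups alone gives a high r. Il1b was most like Zfand5 (0.993), Il12b (0.991), which encodes the p40 subunit of IL-12 and IL-23, and Slc2a6 (0.982). Il12b measured 19.6, 20.8 and 61.4 TPM on average in young TOM+ cDC2, TOM- DC2 and adults. Il1r2 was most like AI607873 (0.996), Arf6 (0.992) and Plscr1 (0.990), and Il18bp most like Gpr162 (0.980), Nfkb2 (0.979) and Crebl2 (0.975).

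Il1r1 was most like Slc28a3 (0.995), a nucleoside transporter gene, Pigr (0.992), the polymeric immunoglobulin receptor gene, and Prdm16 (0.992), a transcription factor gene. All 3 were high in TOM- DC2, at 5.21, 4.73 and 8.06 TPM, and at 0.0367, 0.143 and 0.650 TPM in young TOM+ cDC2. Il18r1 was most like Rasl11a (0.974), Slc28a3 (0.964) and Nr1d1 (0.963), the gene of the nuclear receptor REV-ERBα, whose mean was 11.1 TPM in TOM- DC2 against 0.523 TPM in young TOM+ cDC2. Il18rap was most like Thbs1 (0.984), Spns2 (0.974) and Tor1aip2 (0.959), and Il1rap most like Gmfg (0.979), Aurkaip1 (0.973) and Lgals3 (0.969). For Il18 the genes were Ubl4 (0.985), N6amt2 (0.984) and Mpc1 (0.983), for Il1rn Ppil3 (0.957), Rragb (0.945) and Ppp1r3b (0.939), and for Il1a Ppp2r3d (0.968), Rgcc (0.955) and Sertad1 (0.952).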

How the data were processed

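Spleen cells of C57BL/6 mice positive for CD11c, MHCII and CD11b were sorted live, without autofluorescent cells, and split by Tomato, and SMART-seq cDNA, which holds no strand information, was sequenced. Groups came from the labels. The authors aligned reads to mm10 with STAR and deposited its unnormalized count per gene, of which the unstranded column was used. Between 26.1% and 31.6% of reads fell on no gene and stayed out of library sizes and tests. The authors also deposited RSEM's expected counts (estimated counts, rounded here where tested), effective lengths and TPM on RefSeq transcripts. Versions of STAR and RSEM are not given in the sources used here, and deposited FPKM were not used.

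Counts of all 9 libraries were tested in R 4.3.3 with edgeR 4.0.16's quasi-likelihood test, TMM normalization and a group mean for each group, on genes averaging at least 1 count. Genes were called at a log2FC beyond 1 and a Benjamini-Hochberg padj under 0.05. Alternatives were DESeq2 1.42.0, apeglm 1.24.0 shrinkage, RSEM expected counts, limma 3.58.1 on log2(TPM + 1) and log2(TPM + 0.1), other filters, only the 2 groups compared, each library left out in turn, and the library number as a block. Ratios were tested with exact permutation tests (scipy 1.17.1). On simulated counts for the comparison of the young groups, edgeR recovered 99% of 100 genes changed 4-fold and 100% of 100 changed 8-fold, with 3 false calls among 14289 genes. The changed genes were drawn from genes averaging more reads than Il18r1, with the same spread assumed for every gene. The recovery therefore does not cover genes as low as Il18r1, or as Il1r1 in TOM+ cells. Chi-square per gene between libraries of a group was at least 9.181, where copies would give about 1. Same-numbered young libraries deviated together from their group means (r = 0.743, 0.49 and 0.515 for 81, 91 and 92 over 10112 genes). The numbers come from the deposited names and the labels do not explain them, so what same-numbered libraries shared is not known. The main fit did not use the numbers, and p-values between the young groups come from it unless the block is named. The genes and lists were chosen with earlier results of these data known. Genes named from a list are those called in any comparison, and for each of the 10 genes the 3 most similar by Pearson's r. Capn2 and the untested Il1f5, Il1f6, Il1f9 and Il1f10 fall outside this rule and were named after their values were seen. Counting intervals (95%, exact binomial) and the floor of 3 counts cover counting error only, since no molecular identifiers are described. Promoter windows are RefSeq's for GRCm38.p6, and short motifs were searched on both strands. A marker gene of the innate lymphoid list and a motif that was searched are not reported here.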

Additional observations from a re-analysis of the deposited data

How the results depend on the processing

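The 2 calls between the young groups (Il1r1 and Il18r1) held under all 16 alternatives. Between 3 and 6 genes of the 10 were called for young TOM+ cDC2 against adults and 6 or 7 for TOM- DC2 against adults, where the most (6 and 7) came without a young library numbered 81. Leaving out both young libraries numbered 81, an alternative chosen after seeing the data, gave 2, 5 and 7. Il1r1 in young TOM+ cDC2 against adults lost its call with apeglm (log2FC 0.94), limma (0.19 and 0.84), only the 2 groups (padj = 0.091) and 4 of 6 left-out libraries. Over all genes, the library block called 341 between the young groups instead of 170, limma on log2(TPM + 1) called 1147 and 1014 against adults instead of 1853 and 1631, and DESeq2 and RSEM expected counts each called 2 instead of 1 of the processing genes in TOM- DC2 against adults. The causes were not tested.

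Values near 0 between the young groups changed sign. With a library left out, log2FC ranged from -0.65 to 0.05 for Il1a, from -0.07 to 0.22 for Il1b, from -0.17 to 0.15 for Il1rn, from -0.05 to 0.11 for Il18 and from -0.22 to 0.33 for Il18bp, and the difference in log2 ratio from -0.24 to 0.04 for Il1rn to Il1b and from -0.18 to 0.17 for Il18bp to Il18. Il18 was -0.01 with limma at either pseudocount, and Il18bp -0.36 without both libraries numbered 81. Depth limits Il1r1 and Il18r1 in TOM+ cells, with at most 15 and 6 counts in a library, and Il18bp in young mice, with at most 31.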
